A study of Mus musculus with 42 samples.

Results

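The 9 genes described here, Hspa5, Ddit3, Xbp1, Atf4, Atf6, Trib3, Herpud1, Pdia4 and Asns, belong to the response of a cell to unfolded protein in its endoplasmic reticulum (ER). They were taken as the probes that carry one of these symbols on an Agilent mouse expression array, which gave 11 of the 34891 probes with a gene symbol and 9 of 21186 genes. For 7 groups of 3 mice, RNA of the aorta and of skeletal muscle had been hybridized to 42 single-colour arrays, 21 per tissue. The mice were male and aged 18 to 20 weeks at the start of the study. Healthy mice were C57BL/6, and the mice of every other group were KK/Ay, a strain that carries the yellow allele of agouti and becomes obese and diabetic, so that diabetes and strain cannot be told apart. The diabetic group was KK/Ay mice with no further challenge. Macroangiopathy mice were KK/Ay fed a diet rich in fat for 8 weeks, with L-NAME, which blocks nitric oxide synthase, in their drinking water. The SHENQI, yangyinyiqi, huoxue and rosiglitazone groups were mice of that same model given the SHENQI compound, the yangyinyiqi formula, the huoxue formula or rosiglitazone, an agonist of the nuclear receptor PPAR gamma, by gavage for 8 weeks, while healthy, diabetic and macroangiopathy mice received saline. The yangyinyiqi and huoxue formulas are components of SHENQI.

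Secretory and membrane proteins fold in the ER with the help of the chaperone Hspa5 (BiP) and of disulfide isomerases such as Pdia4. When unfolded protein accumulates, the sensors Ire1, Perk and Atf6 are released, and together they raise folding capacity, send misfolded protein to the proteasome and slow translation. Atf6 is cut in the Golgi to give a transcription factor, and Ire1 splices the mRNA of Xbp1 to give another. Herpud1 works in ER-associated degradation. Perk phosphorylates the initiation factor eIF2 alpha, which favours translation of Atf4, and Atf4 drives Ddit3 (CHOP, a factor tied to apoptosis), Trib3 (a pseudokinase that inhibits Atf4, and Akt) and Asns (asparagine synthetase). Atf4 also responds to amino acid shortage and other stresses, so the Atf4 arm is called the integrated stress response.

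Promoter windows from 250 bases before to 50 bases after the start of transcription were given for 8 of the 9 genes in RefSeq (GRCm38.p6). They were searched on both strands for the ER stress element (CCAAT and CCACG, 9 bases apart), the second ER stress element (ATTGG and CCACG, 1 base apart), the core TGACGTGG of the unfolded protein response element and the core TGATGNAA of the C/EBP-ATF composite site. The sequences of the matches before the start are shown because these genes are read below as targets of the Atf6, Xbp1 and Atf4 arms, with the match in capitals and the flanks in lower case.
Hspa5, ER stress element, chr2:34772005-34772063, plus strand: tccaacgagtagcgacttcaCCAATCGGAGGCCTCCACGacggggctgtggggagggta
Herpud1, second ER stress element, chr8:94386357-94386407, plus strand: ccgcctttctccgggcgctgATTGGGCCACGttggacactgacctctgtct
Herpud1, TGATGNAA on the reverse strand, chr8:94386297-94386344, plus strand: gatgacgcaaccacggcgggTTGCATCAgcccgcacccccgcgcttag
Asns, TGATGNAA, chr6:7693210-7693252, minus strand: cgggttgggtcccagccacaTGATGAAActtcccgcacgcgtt

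The Hspa5 match began 65 bases before the start, that of the second element in Herpud1 52 bases before it, and that of TGATGNAA in Asns 23 bases before it. The first element was held by 0.119% of all 32851 windows in the table, the second by 0.037% and the C/EBP-ATF core by 3.969%. Trib3 held 1 match to the C/EBP-ATF core, which began 14 bases after its start. The core TGACGTGG was found in 0.676% of the windows and in none of the 8, and Ddit3, Xbp1, Atf4 and Pdia4 held none of the 4 motifs.

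Each gene was read by 1 probe of 60 bases, except Atf6 and Trib3, which had 2 each and were averaged. All probes were well above background on all 42 arrays except that of Pdia4, which missed this mark on huoxue skeletal muscle arrays 2 and 3. The probes of Ddit3 and Xbp1 are shown because each decides how its value is to be read, with positions of the array design in mouse build mm9. The 60 bases of the Ddit3 probe cover 304 bases of the genome, so it crosses an intron. The Xbp1 mRNA was read by a single probe, which does not separate the form spliced by Ire1 from the unspliced form.
Ddit3 probe, chr10:126732518-126732821, plus strand: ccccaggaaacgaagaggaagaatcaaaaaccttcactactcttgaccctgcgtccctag
Xbp1 probe, chr11:5424970-5425029, plus strand: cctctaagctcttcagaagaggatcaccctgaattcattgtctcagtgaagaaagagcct

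Signals are given as normalized log2 intensities, where a difference of 1 is a factor of 2, and a gene was called where the adjusted P value of limma (Benjamini-Hochberg, over all genes tested) was below 0.05. The share of probes well above background was 62.9% to 77.6% on aorta arrays and 53.8% to 70% on skeletal muscle arrays, and was lowest, 53.8% to 57.3%, on the slide with the 3 huoxue arrays and rosiglitazone array 1 of skeletal muscle. All 5 smooth muscle and all 5 skeletal muscle markers were well above background on every array of both tissues. Their summed log2 signal separated the tissues for skeletal muscle markers (19.26 to 19.66 in muscle, 11.33 to 18.49 in aorta), while smooth muscle markers ran from 11.93 to 13.63 in muscle and from 12.98 to 18 in aorta. The aorta arrays also held adipocyte markers, with a summed signal of 17.06 to 19.47 against 13.81 to 16.5 in muscle, and cardiac muscle markers (9.01 to 15.79 in aorta and 12.22 to 13.49 in muscle). In tissue RNA, fewer cells of a type and less RNA per cell cannot be told apart.

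Healthy aorta array 1 stood apart from the other arrays. Its summed smooth muscle signal was 12.98, against 15.57 to 18 on the other 20 aorta arrays. Its plasma cell signal (Igj, Tnfrsf17, Sdc1, with Tnfrsf17 well above background on only 3 aorta arrays) was 14.15 and its B and T lymphocyte signal 11.58. Both were the highest of the 21, but by little: a macroangiopathy aorta array reached 14.12 for plasma cells and a huoxue aorta array 11.55 for lymphocytes. Healthy aorta array 1 also gave the highest aorta signal of Hspa5, Xbp1, Atf6, Trib3, Herpud1, Pdia4 and Asns. The 9 genes against healthy aorta and between the tissues, the Trib3 count over KK/Ay groups and the list genes called in aorta are given with and without it. In skeletal muscle the healthy arrays 1 and 3 had the highest plasma cell signals, 10.91 and 9.73, where the 18 arrays of the other groups reached 9.27 at most. The part of these markers in the differences below was not tested.

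The tissues differed in 7 of the 9 genes, where 76.8% of 16176 genes were called. Asns was 2.31 ± 0.12 log2 units higher in aorta (SE, 21 arrays per tissue, adjusted p = 1.37e-17), a 4.95-fold difference. Its aorta signals ran from 11.09 to 12.45 with a median of 11.78 and its muscle signals from 8.99 to 10.45 with a median of 9.41, so the tissues did not overlap. Pdia4 was 1.31 ± 0.07 log2 units higher in aorta (2.48-fold), again without overlap: 7.65 to 9.17 in aorta and 6.5 to 7.33 in muscle. Atf4 lay on the other side. Its aorta signals, 7.85 to 9.47, were 1.21 ± 0.09 log2 units below those of muscle (2.31-fold), which ran from 9.44 to 10.88, so the tissues touched at their edges.

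The remaining tissue differences were smaller. Averaged over the 7 groups, Trib3 was 0.24 ± 0.07 higher in aorta. Xbp1, Ddit3 and Herpud1 were lower in aorta, by 0.47 ± 0.16, 0.41 ± 0.07 and 0.25 ± 0.08 on the log2 scale. For Trib3, Ddit3 and Herpud1 the sign was not the same in every group. Mean Trib3 was higher in aorta in healthy (8.93 and 7.43 in muscle), diabetic, SHENQI and rosiglitazone mice. It was lower in macroangiopathy (7.72 and 7.87), yangyinyiqi and huoxue mice. Ddit3 was higher in aorta only in healthy mice (9.21 and 8.7), and Herpud1 only under huoxue (11.98 and 11.18) and rosiglitazone. Hspa5 (0.20 ± 0.10, adjusted p = 0.0655) and Atf6 were not called. With Agilent's processed signal in place of the quantile normalized values, Hspa5 turned round and was 0.26 lower in aorta (adjusted p from 0.00382 to 0.236 over 53 alternatives). Only 1 of the 11 slides held arrays of both tissues, so that tissue and slide cannot be told apart. Without healthy aorta array 1, 7 genes were called between tissues, with Asns at 2.30, Pdia4 at 1.27, Atf4 at -1.22, Trib3 at 0.19, Xbp1 at -0.62, Ddit3 at -0.42 and Herpud1 at -0.28, and Hspa5 (0.14) and Atf6 (0.04) were not called.

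**Figure D1:**
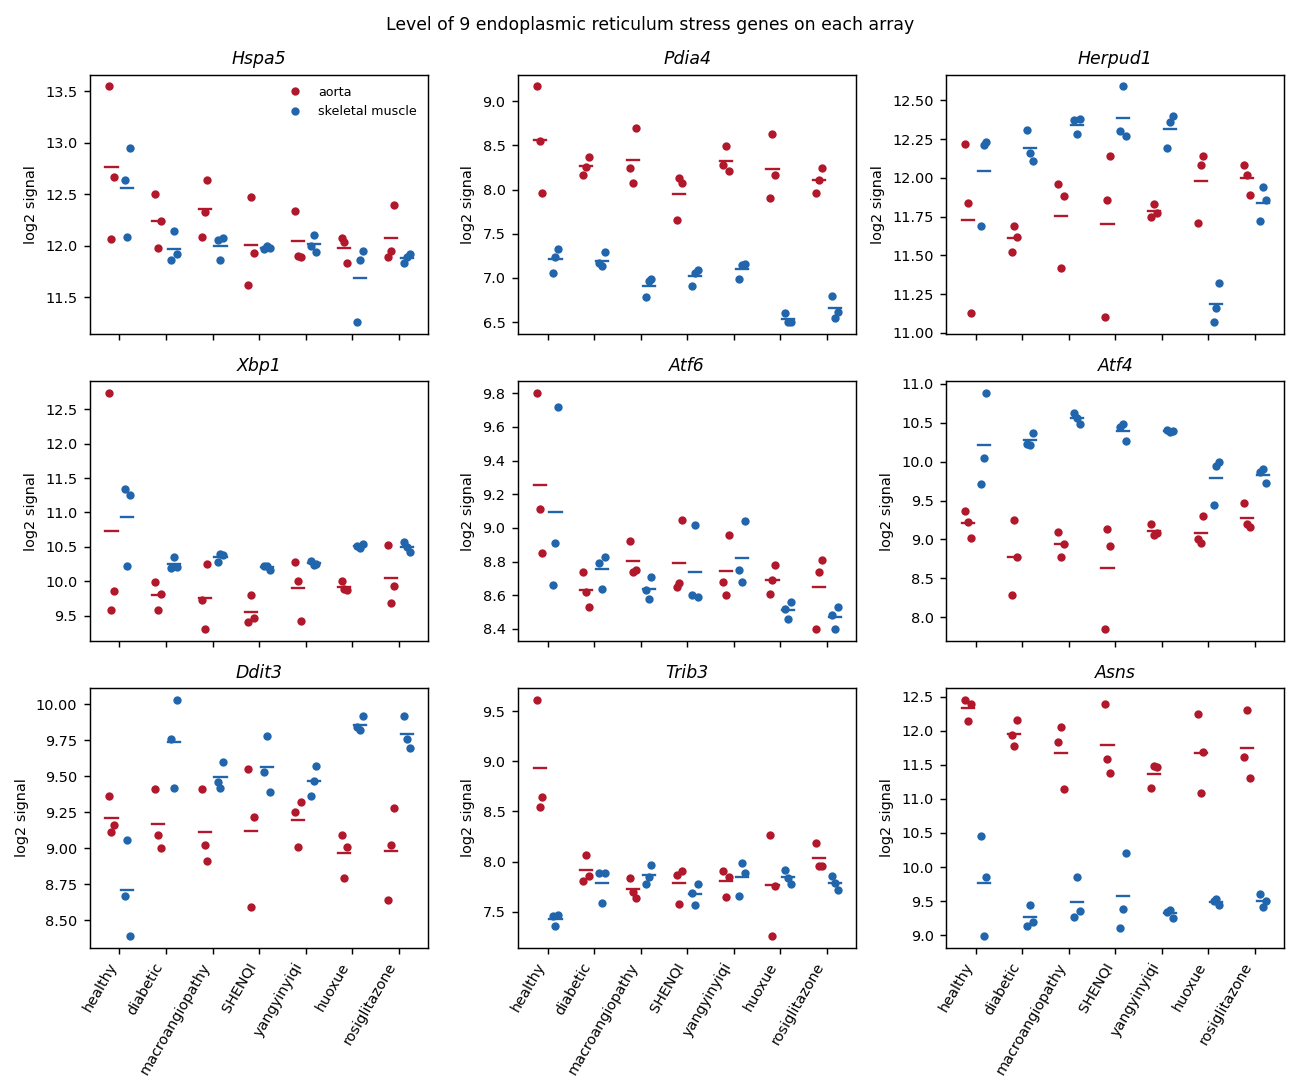
Normalized log2 signal (vertical axis) of each gene on each of the 42 arrays, by group (horizontal axis); points are arrays, red for aorta and blue for skeletal muscle, and lines are means of 3 arrays. Asns and Pdia4 in aorta sit above all muscle arrays, healthy aorta array 1 gives the top Xbp1 point at 12.73, and the huoxue muscle arrays give the lowest muscle points of Herpud1, 11.07 to 11.32.

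In skeletal muscle, Ddit3 and Trib3, both targets of Atf4, were higher in diabetic than in healthy mice, and the chaperone Hspa5 and Xbp1 were lower. Of the 9 genes, 2 were called higher and 2 lower, where 25.3% of 13881 genes were called, 14.8% higher and 10.5% lower. Ddit3 read 8.67, 9.06 and 8.39 on the 3 healthy arrays and 9.76, 9.42 and 10.03 on the diabetic arrays. Every diabetic array was above every healthy one, and the difference was 1.03 ± 0.16 log2 units (2.04-fold, adjusted p = 0.000243). Trib3 read 7.46, 7.36 and 7.47 in healthy and 7.89, 7.59 and 7.89 in diabetic muscle. The groups did not overlap and differed by 0.36 ± 0.11 (1.28-fold, adjusted p = 0.0198). Arrays of the groups did not overlap for 2 of the 9 genes, beside 31.1% of all genes.

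Hspa5 and Xbp1 went the other way. Hspa5 read 12.64, 12.09 and 12.95 in healthy muscle and 11.86, 12.14 and 11.92 in diabetic muscle. The groups overlapped through healthy array 2, and the difference was -0.58 ± 0.18 (1.5-fold, adjusted p = 0.0266). Xbp1 read 11.34, 10.22 and 11.26 in healthy and 10.19, 10.35 and 10.21 in diabetic muscle. Healthy arrays 1 and 3 were above all diabetic arrays and healthy array 2 lay among the diabetic arrays, with a difference of -0.69 ± 0.19 (1.61-fold, adjusted p = 0.0131). Asns (-0.50), Atf6 (-0.34), Pdia4 (-0.01), Atf4 (0.06) and Herpud1 (0.15) were not called.

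Macroangiopathy against healthy muscle shares the healthy arrays with that comparison. Here 2 of the 9 genes were higher and 3 lower, where 23.9% of 13836 genes were called, 14% higher and 9.94% lower. Ddit3 read 9.46, 9.42 and 9.60 in macroangiopathy muscle, above every healthy array, and was 0.79 ± 0.16 higher (1.73-fold, adjusted p = 0.00215). Trib3 read 7.78, 7.85 and 7.97 and was 0.44 ± 0.11 higher (1.35-fold, adjusted p = 0.00702). Hspa5, at 12.06, 11.86 and 12.08, was below every healthy array and 0.56 ± 0.18 log2 units lower than the healthy mean (adjusted p = 0.0348). Xbp1, at 10.28, 10.40 and 10.39, was 0.58 ± 0.19 lower in the mean (adjusted p = 0.0334) but above healthy array 2. Pdia4, the isomerase, read 7.06, 7.24 and 7.33 in healthy and 6.78, 6.97 and 6.99 in macroangiopathy muscle, a difference of -0.30 ± 0.10 (adjusted p = 0.0409). Atf6 (-0.46 ± 0.19, adjusted p = 0.0922) and Herpud1 (0.30 ± 0.13, adjusted p = 0.117) were not called, nor were Atf4 (0.35 ± 0.21) and Asns (-0.27 ± 0.29). Macroangiopathy and healthy arrays did not overlap for 5 of the 9 genes, beside 30.4% of all genes.

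The same healthy arrays were set against each of the 6 KK/Ay groups, which adds the 4 treated groups. In muscle 25.4% of all genes were called for SHENQI, 25.3% for yangyinyiqi, 33.6% for huoxue and 20.9% for rosiglitazone. Ddit3 was higher than healthy in 6 of 6 groups, by 0.76 to 1.15, and all 18 KK/Ay arrays (9.36 to 10.03) lay above the highest healthy array (9.06). All 18 were also above every healthy array for Trib3, which was called higher in 5 of 6 groups, with SHENQI at 0.25 ± 0.11 the exception. Hspa5 was called lower in 6 of 6 groups (-0.87 to -0.54), and 16 of the 18 arrays were below every healthy array. For how many of all genes the 18 arrays separate in this way was not counted. Xbp1 differed by -0.73 to -0.43 and was called lower in 4 of 6 groups, not in huoxue or rosiglitazone. Pdia4 was called lower in 3 of 6 groups, macroangiopathy, huoxue (-0.68 ± 0.10, adjusted p = 0.000132) and rosiglitazone (-0.56 ± 0.10, adjusted p = 0.00112). Atf6 was called lower in 2, huoxue (-0.59 ± 0.19) and rosiglitazone (-0.63 ± 0.19), and Herpud1 in 1, huoxue (-0.86 ± 0.13). Atf4 (-0.41 to 0.35) and Asns (-0.50 to -0.19) were called in none. Since the 6 comparisons use 1 set of healthy arrays, they are not independent of each other.

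Apart from rosiglitazone, no KK/Ay group had a muscle array on a slide that held healthy muscle. Slide and group therefore cannot be told apart when diabetic, macroangiopathy, SHENQI, yangyinyiqi or huoxue muscle is set against healthy muscle. Treated against healthy muscle was not run with slide as a block or with arrays left out. Slide 2, in a numbering made here, held healthy arrays 1 and 2 beside rosiglitazone arrays 2 and 3. On it Ddit3 read 8.67 and 9.06 in healthy and 9.76 and 9.70 in rosiglitazone muscle, and Trib3 read 7.46 and 7.36 against 7.79 and 7.72. These are 2 arrays per group, were not tested alone, and include no diabetic or macroangiopathy array. Hspa5 there read 12.64 and 12.09 against 11.89 and 11.92, and Xbp1 read 11.34 and 10.22 against 10.50 and 10.43, with overlap. With slide as a random block, Ddit3 was still called in diabetic (adjusted p = 0.00565) and macroangiopathy muscle (0.0148), and Trib3 in macroangiopathy muscle (0.0377). The differences of the calls lost were about as large as before: Trib3 in diabetic muscle 0.35 (0.134), Hspa5 -0.59 (0.132) in diabetic and -0.57 (0.0985) in macroangiopathy muscle, Xbp1 -0.73 (0.0777) and -0.61 (0.0918), and Pdia4 in macroangiopathy muscle -0.35 (0.0536).

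Single arrays also decided some of these calls. Ddit3 kept its call without any 1 of the arrays compared. Hspa5 in diabetic muscle lost its call without healthy array 1 or 3 or diabetic array 1 or 3 (differences of -0.54, -0.39, -0.53 and -0.56), and in macroangiopathy muscle without healthy array 1 or 3 or any macroangiopathy array (-0.60 to -0.36). Xbp1 lost its call without healthy array 1 or 3 (-0.49 and -0.53 in diabetic, -0.38 and -0.42 in macroangiopathy muscle) and, in macroangiopathy muscle, without any 1 array of that group. Without healthy array 2 it was -1.05 in diabetic and -0.94 in macroangiopathy muscle. Trib3 in diabetic muscle lost its call without diabetic array 1 or 3 (0.31 in both cases). Pdia4 kept its call only without healthy array 1. Over all alternatives the adjusted p ran from 3.7e-05 to 0.201 for Ddit3, 0.00301 to 0.481 for Trib3, 0.00125 to 0.225 for Hspa5 and 3.93e-07 to 0.341 for Xbp1 in diabetic muscle. In macroangiopathy muscle it ran from 0.000245 to 0.267 for Ddit3, 0.00219 to 0.43 for Trib3, 0.00169 to 0.233 for Hspa5, 1.5e-06 to 0.452 for Xbp1 and 0.0194 to 0.405 for Pdia4. These ranges include a fit of 12 arrays that averages the changes of both tissues and so does not estimate the muscle difference. For Trib3 it gave the upper ends, 0.481 and 0.43.

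The probes of Trib3 gave unequal values in muscle, and the difference between them was not tested. The first, A_51_P331570, was 0.63 ± 0.14 higher in diabetic and 0.67 ± 0.14 higher in macroangiopathy than in healthy muscle, and the second, A_52_P600274, 0.09 ± 0.12 and 0.20 ± 0.12 higher. Against macroangiopathy muscle they had opposite signs, -0.36 ± 0.14 and 0.32 ± 0.12 under huoxue and -0.32 ± 0.14 and 0.16 ± 0.12 under rosiglitazone, which the averaged Trib3 value does not show. Macrophage markers moved beside the muscle results: 3 of 4 were called lower in diabetic and 3 of 4 in macroangiopathy than in healthy muscle, and their summed signal was 12.03 to 13.53 on healthy arrays and 11.44 to 12.17 on the 18 arrays of the other groups. Red cell markers were called lower for 3 of 3 in diabetic muscle (median -0.98), with a summed signal of 15.28 to 15.81 on healthy arrays and 14.31 to 15.63 on the 18 others, and for 0 of 3 in macroangiopathy muscle. Of 6 adipocyte markers, 2 were higher and 1 lower in diabetic muscle, and 1 and 1 in macroangiopathy muscle. Their summed signal was 15.19 to 16.5 on healthy arrays, 14.16 to 14.72 on diabetic and 13.99 to 14.94 on macroangiopathy arrays. Over the 18 arrays of the other groups it ran from 13.81 to 16.15, the highest in SHENQI muscle. The part of these markers in the differences was not tested.

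**Figure D2:**
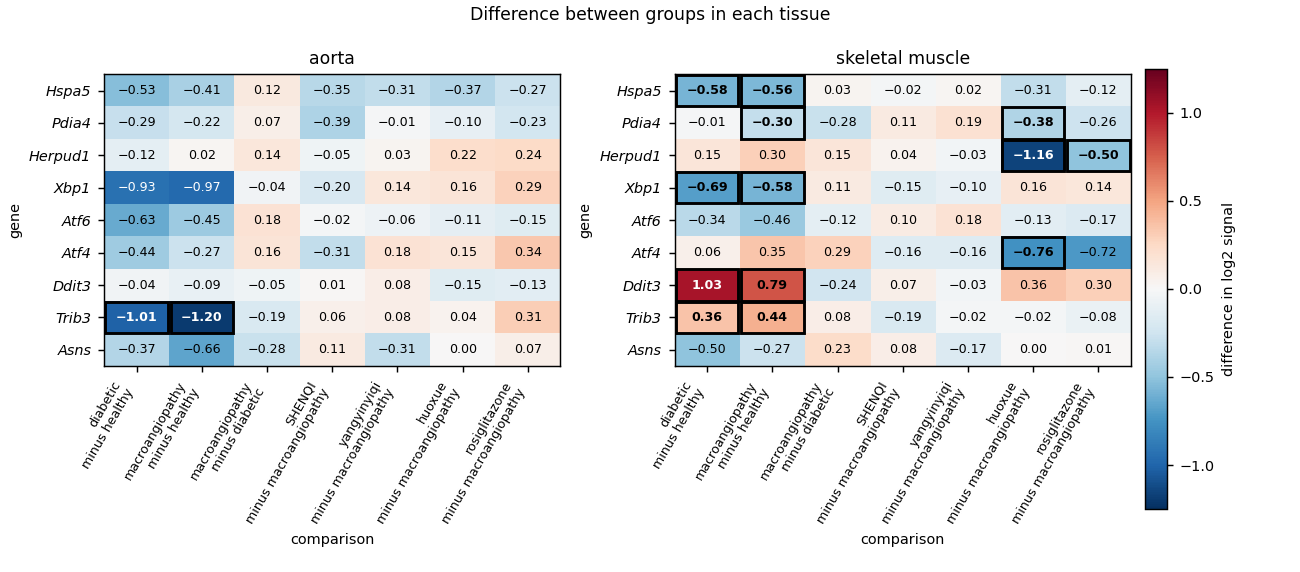
Difference in log2 signal between groups for each gene (rows) and comparison (columns) in aorta and skeletal muscle, by colour and as a number; framed bold cells were called at an adjusted P value below 0.05. In muscle Ddit3 and Trib3 are higher and Hspa5 and Xbp1 lower than healthy, Trib3 is the gene called in aorta, and Herpud1 under huoxue has the lowest muscle value, -1.16.

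In aorta, Trib3 was lower in KK/Ay than in healthy mice and no other gene of the 9 was called. It read 9.61, 8.54 and 8.64 on the healthy arrays, 7.81, 8.07 and 7.86 on the diabetic arrays and 7.84, 7.70 and 7.64 on the macroangiopathy arrays. All 18 KK/Ay arrays, from 7.26 to 8.27, were below every healthy array. For how many of all genes the 18 aorta arrays separate in this way was not counted. The difference was -1.01 ± 0.25 in diabetic aorta (2.02-fold lower, adjusted p = 0.032), where 4.36% of 14094 genes were called, and -1.20 ± 0.25 in macroangiopathy aorta (2.3-fold lower, adjusted p = 0.011), where 6.96% of 15415 genes were called. Against healthy, Trib3 was called lower in 5 of 6 KK/Ay groups (-1.20 to -1.01), with rosiglitazone, at -0.89 ± 0.25 (adjusted p = 0.0545), outside. Without healthy aorta array 1 it was called in 2 of 6, macroangiopathy and huoxue (-0.86 and -0.82), and differed by -0.80 to -0.55 in the other 4. Of all genes, 3.17% were called for SHENQI, 5.86% for yangyinyiqi, 3.88% for huoxue and 4.25% for rosiglitazone. Both probes of Trib3 were lower, by 1.20 and 0.82 log2 units in diabetic and 1.29 and 1.11 in macroangiopathy aorta. Diabetic and healthy aorta arrays did not overlap for 2 of the 9 genes, beside 19.4% of all genes. Macroangiopathy and healthy aorta arrays did not overlap for 2 of the 9, beside 28.2% of all genes.

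Without healthy aorta array 1, Trib3 was 0.86 log2 units lower in macroangiopathy aorta and remained called (adjusted p = 0.0336), and was 0.67 lower in diabetic aorta and was not called (adjusted p = 0.118). Leaving out any 1 diabetic array also ended that call with differences of -1.09 to -0.96 (adjusted p from 0.0693 to 0.103), as did leaving out macroangiopathy array 2 or 3 in the other comparison (-1.19 and -1.16, adjusted p = 0.0531 and 0.055). The slide that held healthy arrays 1 and 3 beside diabetic array 1 and SHENQI array 1 was the only aorta slide of its scan day. Without it Trib3 differed by -0.57 in diabetic and -0.81 in macroangiopathy aorta, and neither was called, and with slide as a fixed block the diabetic difference was -1.23 (adjusted p = 0.201). Over all alternatives the adjusted p ran from 0.000744 to 0.481 in diabetic and from 9.28e-05 to 0.43 in macroangiopathy aorta. The upper ends again come from the fit of 12 arrays that averages both tissues, which does not estimate the aorta difference. Summed smooth muscle signal was 12.98 to 16.69 on healthy aorta arrays and 15.57 to 18 on the 18 others, and red cell signal 15.96 to 17.58 against 17.42 to 18.99. Skeletal muscle signal was 12.24 to 16.17 against 11.33 to 18.49, the highest on a diabetic array. Adipocyte signal was 17.25 to 19.47 against 17.06 to 19.34, the highest on healthy array 2. The part of these markers in the Trib3 difference was not tested.

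The change of Trib3 differed between the tissues. As the change in aorta minus that in muscle, it was -1.37 ± 0.28 log2 units in diabetic against healthy mice (interaction, adjusted p = 0.00795), where 1.06% of 14808 genes were called, and -1.64 ± 0.28 in macroangiopathy against healthy mice (adjusted p = 0.00123), where 3.18% of 15741 genes were called. Without healthy aorta array 1 the values were -1.03 (adjusted p = 0.0137) and -1.30 (adjusted p = 0.00105), and the adjusted p stayed below 0.05 under 16 of 16 alternatives in both comparisons (0.00254 to 0.032 and 0.00023 to 0.00533). The interactions were not run without the aorta slide of its own scan day, with slide as a fixed block, with the brightest probe or with the authors' log2 values. Ddit3, which was higher in diabetic muscle, read 9.36, 9.11 and 9.16 in healthy and 9.41, 9.09 and 9.0 in diabetic aorta. Its change differed between the tissues by -1.07 ± 0.28 in diabetic mice (adjusted p = 0.0492), a call that was lost without healthy aorta array 1 (-1.0, adjusted p = 0.0681) and without 8 of the other 11 arrays compared (-1.19 to -0.91), and held under 3 of 16 alternatives (0.015 to 0.154). In macroangiopathy mice the Ddit3 difference between tissues was -0.88 ± 0.28 and was not called (adjusted p = 0.0707). For rosiglitazone against macroangiopathy, 0 of the 9 changes differed between tissues after adjustment (0.0126% of all genes) and 2 at an unadjusted P value below 0.05 (8.9% of all genes). For macroangiopathy against diabetic, SHENQI against macroangiopathy and yangyinyiqi against macroangiopathy, 0 of the 9 differed between tissues by limma (0% of all genes) and 0 at that unadjusted mark (1.91%, 0.881% and 0.466% of all genes).

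**Figure D3:**
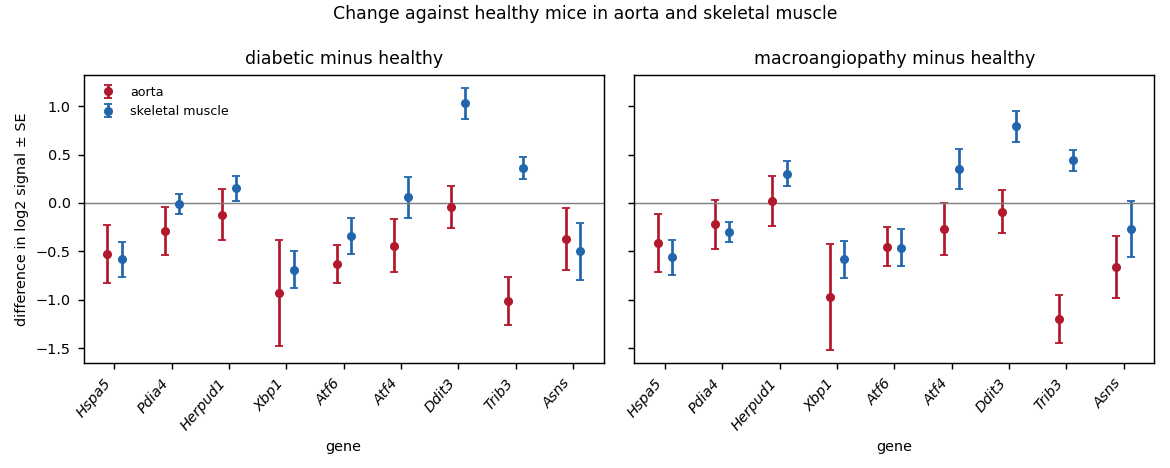
Difference in log2 signal against healthy mice (vertical axis, with SE) for each gene in diabetic (left) and macroangiopathy mice (right); red is aorta and blue skeletal muscle, 3 arrays per group. Trib3 is lower in aorta (-1.01 and -1.20) and higher in muscle (0.36 and 0.44), and Ddit3 is near 0 in aorta and higher in muscle (1.03 and 0.79).

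Healthy aorta array 1 set the healthy means of Xbp1 and Hspa5. Xbp1 read 12.73, 9.59 and 9.86 on the healthy arrays, and 9.31 to 10.53 on the 18 arrays of the other groups. Its difference, -0.93 ± 0.55 in diabetic and -0.97 ± 0.55 in macroangiopathy aorta, was not called and was 0.07 and 0.03 without healthy array 1, and healthy arrays 2 and 3 lay inside the range of the other groups. Hspa5 read 13.55, 12.07 and 12.67 in healthy aorta and 11.62 to 12.64 elsewhere, and its difference went from -0.53 to -0.13 in diabetic and from -0.41 to -0.02 in macroangiopathy aorta when healthy array 1 was left out. Without it Pdia4 differed by 0.02 and 0.08, Asns by -0.31 and -0.60, Atf4 by -0.35 and -0.19, Ddit3 by 0.03 and -0.02 and Herpud1 by 0.12 and 0.27 in diabetic and macroangiopathy aorta, none called. Xbp1 is also a factor that plasma cells need to secrete antibody, and the array with the top Xbp1 and Hspa5 was the one with the top plasma cell signal, 14.15. A macroangiopathy aorta array with a plasma cell signal of 14.12 read 10.25 for Xbp1 and 12.64 for Hspa5, the latter the highest of the 18 KK/Ay aorta arrays. The part of plasma cells in these values was not tested. Atf6 read 9.80, 9.11 and 8.85 in healthy and 8.74, 8.62 and 8.53 in diabetic aorta, with no overlap, as for 19.4% of all genes. The difference of -0.63 ± 0.20 was not called (adjusted p = 0.0857) and became -0.35 without healthy array 1 (-0.18 in macroangiopathy aorta). The probes of Atf6 differed by -0.96 ± 0.20 (A_51_P129108) and -0.29 ± 0.23 (A_52_P464346).

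**Figure D4:**
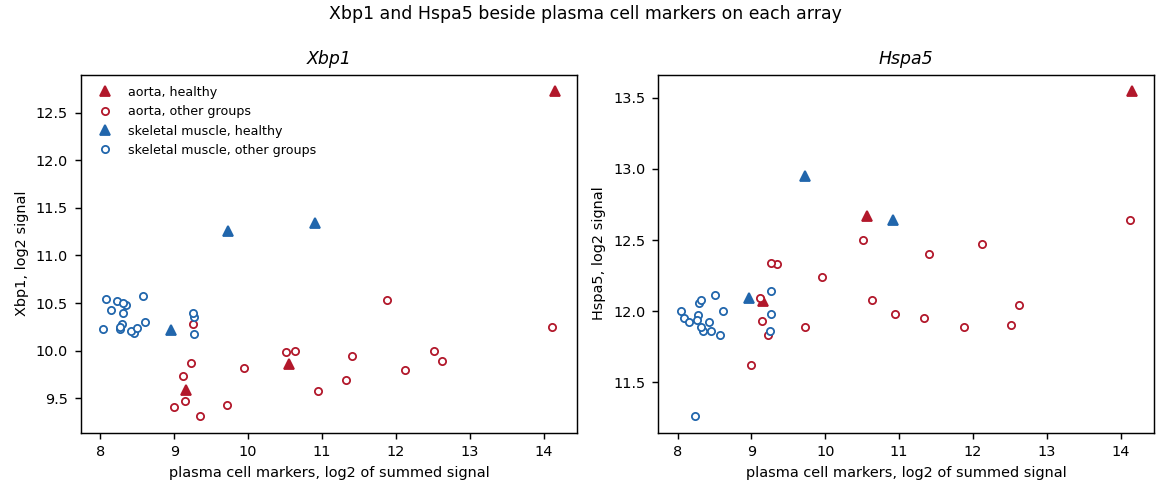
Log2 signal of Xbp1 (left) and Hspa5 (right) against the log2 of the summed signal of plasma cell markers on each array; triangles are healthy mice, open circles the other 6 groups, red aorta and blue skeletal muscle. Healthy aorta array 1 is at the top right of both panels (14.15; 12.73 and 13.55), and healthy muscle arrays 1 and 3 (10.91 and 9.73) lie above and to the right of the other muscle arrays.

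Against the macroangiopathy group, the huoxue formula was followed by lower Herpud1, Atf4 and Pdia4 in skeletal muscle. These 3 of the 9 genes were called, all lower, where 17.2% of 13422 genes were called, 9.95% lower. Herpud1 read 12.37, 12.28 and 12.38 in macroangiopathy and 11.07, 11.16 and 11.32 in huoxue muscle, with no overlap and a difference of -1.16 ± 0.13 (2.23-fold lower, adjusted p = 3.63e-05). It was the lowest group of the 7, and the 12 muscle arrays of the diabetic, macroangiopathy, SHENQI and yangyinyiqi groups read 12.11 to 12.59. Atf4 read 10.63, 10.56 and 10.49 in macroangiopathy and 9.44, 9.95 and 10 in huoxue muscle, a difference of -0.76 ± 0.21 (1.7-fold lower, adjusted p = 0.0181). Pdia4 read 6.78, 6.97 and 6.99 against 6.60, 6.50 and 6.50 (-0.38 ± 0.10, adjusted p = 0.016), with 2 of these huoxue arrays not well above background. Ddit3, at 9.84, 9.82 and 9.92, was above every macroangiopathy array but not called (0.36 ± 0.16, adjusted p = 0.129). Huoxue and macroangiopathy arrays did not overlap for 6 of the 9 genes, beside 50.2% of all genes.

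Rosiglitazone was followed by lower Herpud1 in muscle, the only one of the 9 genes called, where 4.78% of 13559 genes were called. It read 11.72, 11.94 and 11.86, below every macroangiopathy array, a difference of -0.50 ± 0.13 (1.42-fold lower, adjusted p = 0.0395). Atf4 read 9.87, 9.90 and 9.73, also below every macroangiopathy array, and its difference of -0.72 ± 0.21 was not called (adjusted p = 0.0543). Such a lack of overlap held for 5 of the 9 genes, beside 36.8% of all genes. Pdia4 differed by -0.26 ± 0.10 (adjusted p = 0.15). Huoxue and rosiglitazone were both compared with the same macroangiopathy arrays. Among cell type markers, 2 of 5 for skeletal muscle and 1 of 4 for endothelium were lower and 1 of 4 for macrophages higher under huoxue, and 1 of 5 for skeletal muscle lower and 1 of 4 for macrophages higher under rosiglitazone, and their part was not tested. Between the 2 treatments, huoxue muscle had 0.66 ± 0.13 less Herpud1 than rosiglitazone muscle, which was not called (adjusted p = 0.0759).

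The slides of these arrays were not those of the macroangiopathy arrays, so slide and group cannot be told apart. The 3 huoxue arrays and rosiglitazone array 1 made up slide 1, which had the lowest share of probes well above background, and rosiglitazone arrays 2 and 3 shared slide 2 with healthy arrays 1 and 2. Atf4 split by slide in muscle: the 8 arrays of slides 1 and 2, healthy ones included, read 9.44 to 10.05 and the 13 arrays of slides 4 to 7 read 10.22 to 10.88. For Herpud1, 7 of the 8 arrays of slides 1 and 2 (11.07 to 11.94) lay below all 13 others (12.11 to 12.59), and the exception was healthy array 2 at 12.21. For the remaining genes this held for 6 of the 8 arrays (Atf6), 5 (Pdia4), 2 (Hspa5 and Trib3), 1 (Asns) and 0 (Ddit3 and Xbp1). Pdia4 read 7.06 and 7.24 on healthy arrays 1 and 2 of slide 2, within the 6.78 to 7.33 of slides 4 to 7. How many of all genes split in this way was not counted. Within slide 1 Herpud1 read 11.07 to 11.32 under huoxue and 11.72 under rosiglitazone. With slide as a random block, huoxue kept the Herpud1 call (-1.09, adjusted p = 0.00261) and lost those of Atf4 (-0.73, 0.111) and Pdia4 (-0.40, 0.0825), and rosiglitazone lost Herpud1 (-0.46, 0.264).

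Leaving out 1 array at a time left Herpud1 under huoxue called in each case (-1.23 to -1.10). Atf4 under huoxue lost its call without huoxue array 1 (-0.58) or macroangiopathy array 1 or 2 (-0.73 and -0.76), and Pdia4 without huoxue array 2 or 3 or macroangiopathy array 2 or 3 (-0.36 to -0.34). Herpud1 under rosiglitazone lost its call without any 1 of the 6 arrays (-0.55 to -0.44). Over all alternatives the adjusted p ran from 1.95e-05 to 0.387 for Herpud1, 0.0137 to 0.458 for Atf4 and 0.00578 to 0.469 for Pdia4 under huoxue, and from 0.0215 to 0.782 for Herpud1 under rosiglitazone. These ranges also include the fit of 12 arrays that averages both tissues. In aorta, Herpud1 read 11.96, 11.42 and 11.88 in macroangiopathy and 11.71, 12.08 and 12.14 in huoxue mice. Its change differed between the tissues by 1.38 ± 0.30 (aorta minus muscle, adjusted p = 0.0461), where 0.134% of 15726 genes were called, but under 0 of 16 alternatives was this adjusted p below 0.05 (0.0523 to 0.207).

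The other comparisons called none of the 9 genes, and limma called 0% of all genes in each of them. In muscle these were macroangiopathy against diabetic, SHENQI against macroangiopathy and yangyinyiqi against macroangiopathy, with differences of the 9 genes from -0.28 to 0.29, -0.19 to 0.11 and -0.17 to 0.19. In aorta the same 3 comparisons gave -0.28 to 0.18, -0.39 to 0.11 and -0.31 to 0.18, and huoxue and rosiglitazone gave -0.37 to 0.22 and -0.27 to 0.34. At an unadjusted P value below 0.05, 1 gene passed in 1 of these comparisons, Pdia4 in macroangiopathy against diabetic muscle (-0.28 ± 0.10), and 0 in the others. Of all genes, 3.29%, 1.05% and 0.973% passed that mark in these 3 muscle comparisons, and 1.73%, 1.34%, 0.365%, 0.782% and 2.95% in the 5 aorta comparisons, in the order given. Standard errors of single genes ran from 0.20 to 0.55 in aorta and from 0.10 to 0.29 in muscle.

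The rest of the pathway was read from 8 lists with 96 genes, 94 of them on the array. In muscle, 10 of the 88 genes tested were higher and 15 lower in diabetic than in healthy mice (14.8% and 10.5% of all genes), and 14 and 13 of 89 in macroangiopathy mice (14% and 9.94%). ER chaperones and co-chaperones were called lower more often than higher, with 4 of 14 lower and 1 higher in both comparisons and a median of -0.30 and -0.28, where the median over all genes was 0.033 and 0.034. Integrated stress response regulators went both ways, with 2 higher and 6 lower of 16 in diabetic and 4 and 5 of 16 in macroangiopathy muscle. Amino acid synthesis and transport genes had 4 higher and 1 lower of 14 in both.

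Named by size, the largest increases in diabetic muscle were those of Atf5, a relative of Atf4 (1.41 ± 0.18), Mthfd2, a mitochondrial enzyme of folate metabolism (0.97 ± 0.20), and Nfyb, a subunit of the factor NF-Y that binds CCAAT (0.82 ± 0.14). The largest decreases were those of Ddit4, an inhibitor of mTORC1 (-2.36 ± 0.32), Chac1, which degrades glutathione (-1.55 ± 0.40), and Pdia3, a disulfide isomerase (-1.51 ± 0.42). In macroangiopathy muscle they were Atf5 (1.74 ± 0.18), Mthfd2 (1.27 ± 0.20) and Psph, the last enzyme of serine synthesis (0.89 ± 0.15), and Chac1 (-1.81 ± 0.40), Ddit4 (-1.72 ± 0.32) and the transcription factor Atf3 (-1.62 ± 0.33). Chac1, like Ddit3 and Trib3 a known target of Atf4, was thus called in the opposite direction to them, and Asns was not called in either comparison.

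In aorta, 1 of 90 list genes was higher and 4 lower in diabetic mice (2.01% and 2.36% of all genes), and 3 and 9 of 91 in macroangiopathy mice (3.63% and 3.33%). Derl1, a channel component of ER-associated degradation, was lowest in both (-1.33 ± 0.21 and -1.51 ± 0.21), with Psph next (-1.16 ± 0.16 and -1.26 ± 0.16). Without healthy aorta array 1, 2 of these 5 and 4 of these 12 list genes stayed called, Derl1 (-1.58 and -1.75) and Psph (-1.35 in macroangiopathy aorta) in both. The largest increases were Pdia5 in diabetic aorta (0.98 ± 0.26) and Nupr1, a stress-induced chromatin protein, in macroangiopathy aorta (1.72 ± 0.46), which were 0.83 and 1.48 and not called without that array. Under huoxue in muscle, 4 of 89 list genes were higher and 13 lower (7.29% and 9.95% of all genes). The decreases were led by Nars, a tRNA synthetase (-1.75 ± 0.19), Mthfd2 (-1.32 ± 0.20) and Cebpg, a partner of Atf4 (-1.04 ± 0.14), and 3 of 12 cytosolic tRNA synthetases were lower. The increases were led by Casp12 (0.47 ± 0.12), the chaperone-like factor Manf (0.43 ± 0.14) and Selk (0.34 ± 0.08). Under rosiglitazone in muscle, 0 of 90 were higher and 4 lower (1.42% and 3.36% of all genes), led by Nars (-1.0 ± 0.19), Cebpg (-0.64 ± 0.14) and Erp44 (-0.50 ± 0.13).

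**Figure D5:**
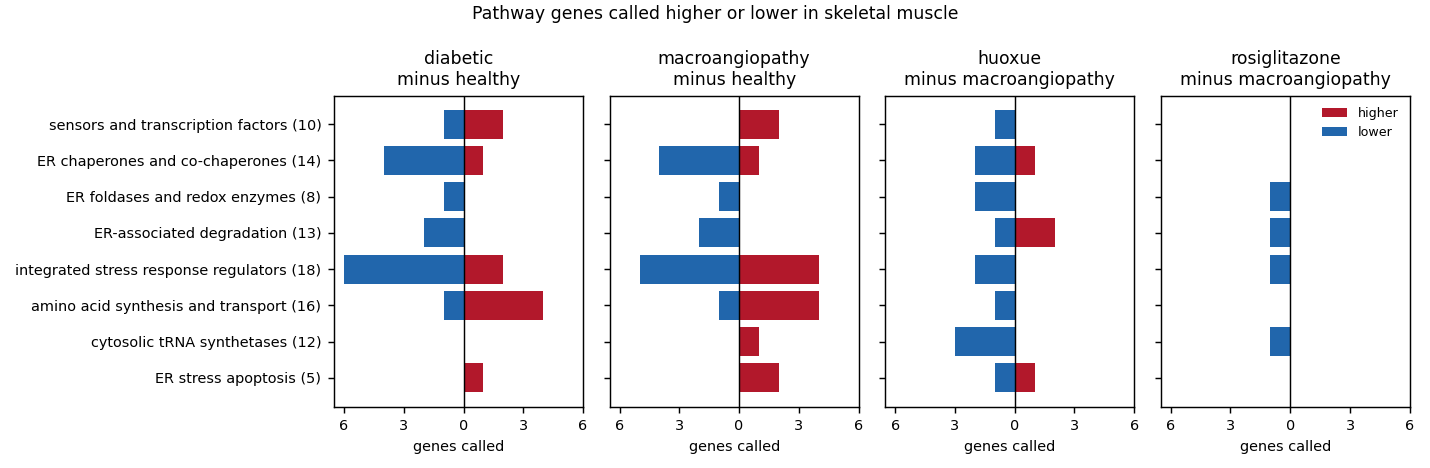
Number of genes called higher (red, right of 0) or lower (blue, left of 0) in skeletal muscle for 8 lists of pathway genes (rows; list size in parentheses) in 4 comparisons. Chaperones have 1 gene higher and 4 lower against healthy mice in both comparisons, and tRNA synthetases have 3 lower under huoxue.

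Between tissues, chaperones and co-chaperones were higher in aorta for 12 of 14 genes and lower for 1, and foldases for 7 of 8 and 1, beside 40.3% and 36.5% of all genes. Cytosolic tRNA synthetases were higher in aorta for 1 of 12 and lower for 10. The counts higher and lower were 6 and 2 of 9 for sensors and transcription factors, 5 and 3 of 12 for ER-associated degradation, 8 and 6 of 17 for integrated stress response regulators, 5 and 6 of 15 for amino acid genes and 3 and 2 of 5 for apoptosis. The largest list differences were those of Nupr1 (2.60 ± 0.15), Phgdh, the first enzyme of serine synthesis (1.74 ± 0.17), and Gdf15 (1.73 ± 0.17) on the aorta side, and Chac1 (-4.21 ± 0.21), Eprs (-1.50 ± 0.06) and Nfyb (-1.47 ± 0.06) on the muscle side.

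The groups were ordered by their observed means in each tissue, and neighbours were compared. Neighbours are picked as close in mean, so few differences follow from the ordering and the count does not measure how far groups differ. For how many of all genes neighbours differ was not counted. Of 108 pairs of neighbouring groups over the 9 genes, 2 differed at an adjusted P value below 0.05, both in muscle and both next to the healthy group: Hspa5 between healthy and yangyinyiqi (0.54 ± 0.18) and Ddit3 between yangyinyiqi and healthy (0.76 ± 0.16). The healthy group had the highest mean of Hspa5, Xbp1, Atf6, Pdia4 and Asns in both tissues, for Hspa5 12.76 ± 0.74 in aorta and 12.56 ± 0.44 in muscle (SD, n = 3). In aorta this rested on healthy array 1 for Xbp1 and Pdia4: over the other 2 arrays the healthy mean was 9.73 for Xbp1, below 5 of the 6 other groups, and 8.25 for Pdia4, below 3 of 6, and for Hspa5 it was 12.37 beside 12.36 in macroangiopathy.

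Within groups, the genes whose deviations from the group means were most like those of Hspa5 over 42 arrays, among 11251 genes well above background on all of them, were Zfp330 (r = 0.79), Fam46c (0.79), Smc2 (0.78), A230046K03Rik (0.78) and the chemokine Ccl12 (0.78). For Asns they were Cox6a1 (0.79), Ap1s1 (0.73), G6pdx (0.71), Odz4 (0.70) and Gpr160 (0.70), and none of the 10 is in a pathway list. Among the 9 genes the highest such correlations were between Hspa5 and Xbp1 (0.72) and between Herpud1 and Pdia4 (0.69), and the lowest between Herpud1 and Asns (-0.50). These values describe 42 arrays that share 11 slides, and healthy aorta array 1 is far from its group mean in several of the genes.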

How the data were processed

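The authors deposited scanner output of Feature Extraction 10.7.3.1 for 42 Agilent 4x44K arrays, and the deposited median intensity of each spot and of its background was used here. A deposited table of log2 values of 41267 probes, made by the authors, served as an alternative. Intensities were corrected by normexp (offset 0), brought to common quantiles across all 42 arrays and log2 transformed with limma 3.58.1 in R 4.3.3, as the study's methods name limma and quantile normalization. Control and irregular spots were left out, and probes of a gene were averaged. Genes were tested if at least 1 of the groups compared had a probe that Feature Extraction marked well above background on its 3 arrays. Each tissue was fitted with its 21 arrays and 7 means (lmFit, eBayes); tissue contrasts and interactions used 42 arrays and 14 means, with Benjamini-Hochberg adjustment. Replicates were 3 mice per group and tissue, and their number limits the precision. The labels do not say whether aorta and muscle arrays of 1 number share a mouse, and the 42 arrays were fitted as separate samples. Alternatives covered background, normalization, filter, probes, arrays in the fit, slide, replicate number and each array left out. For the interactions they were fewer: the processed signal, no filter, slide as a random block, replicate number and each array left out. The fit was also run on simulated data drawn without slide effects, so that run cannot show how calls hold where slide and group coincide.

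The 9 genes and the lists were chosen with earlier results of these data known. All 9 genes were read in every comparison, those not called by value or range, and of the lists at most the 3 largest increases and 3 largest decreases among called genes. Comparisons of treated with healthy mice, slide ranges and the lists without healthy aorta array 1 were added after the values were seen. Proteins were not analysed here.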

Additional observations from a re-analysis of the deposited data

Results flagged for a closer look

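The changes of 3 genes differed between aorta and skeletal muscle by a test of the interaction, each given as the change in aorta minus the change in muscle. Trib3 differed by -1.37 ± 0.28 log2 units in diabetic against healthy mice (limma, adjusted p = 0.00795) and by -1.64 ± 0.28 in macroangiopathy against healthy mice (adjusted p = 0.00123). Both stayed below 0.05 under 16 of 16 alternatives, and they share the healthy arrays. Fewer alternatives were run here than within a tissue. None left out the aorta slide of its own scan day or set slide as a fixed block. Ddit3 differed by -1.07 ± 0.28 in diabetic against healthy mice (adjusted p = 0.0492), below 0.05 under 3 of 16 alternatives. Herpud1 differed by 1.38 ± 0.30 in huoxue against macroangiopathy mice (adjusted p = 0.0461), below 0.05 under 0 of 16.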

How the results depend on the processing

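Counts of the 9 genes called depended on the arrays in the fit, on slide and on single arrays. In aorta, diabetic against healthy (1 called) gave 0 with Agilent's processed signal, 0 with only the 6 arrays compared, 0 with 12 arrays of both tissues and a tissue term, 0 with slide as a fixed block, 0 without the slide of its own scan day, 2 with the brightest probe, 2 with all 42 arrays, and 0 to 2 with 1 array left out. Macroangiopathy against healthy aorta (1) gave 2 with the brightest probe, 0 with 6 arrays, 0 with 12, 0 without that slide, and 0 to 1 with 1 array left out. In muscle, diabetic against healthy (4) gave 0 with 6 arrays, 0 with 12, 1 with 42, 1 with slide as a random block, and 2 to 5 with 1 array left out. Macroangiopathy against healthy muscle (5) gave 0 with 6 arrays, 0 with 12, 1 with 42, 2 with slide as a random block, and 2 to 4 with 1 array left out. Huoxue in muscle (3) gave 0 with 12 arrays, 1 with 42, 1 with slide as a random block, and 1 to 2 with 1 array left out. Rosiglitazone in muscle (1) gave 2 with a normexp offset of 50, with quantiles within tissue, with the brightest probe, with 6 arrays and with a trended robust eBayes, and 0 with the processed signal, with the authors' log2 table, with no filter, with 12 arrays, with 42 arrays, with slide as a random block and with any 1 array left out. For differences between tissues, diabetic against healthy (2) gave 1 and huoxue (1) gave 0 with the processed signal, with no filter, with slide as a random block and with the replicate block, and with 1 array left out they gave 1 to 2 and 0. Macroangiopathy against healthy (1) gave 1 to 2 with 1 array left out, and aorta against muscle (7) gave 7 to 8. Counts of 0 stayed at 0 under all alternatives run. In an alternative chosen after seeing the data, without healthy aorta array 1, Trib3 was called lower in 2 KK/Ay groups in place of 5, and 2 of 5 (diabetic) and 4 of 12 (macroangiopathy) list genes stayed called in aorta.

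Directions turned in 3 cases. Trib3 in muscle was -0.33 (adjusted p = 0.481) in diabetic and -0.38 (0.43) in macroangiopathy against healthy mice when both tissues were averaged in the fit of 12 arrays, and Hspa5 in aorta against muscle was -0.26 with the processed signal. The first 2 follow from that fit, which averages opposite changes of the tissues. For the other alternatives the cause was not tested. Between the groups of a comparison, correlations of same-numbered arrays' deviations ran from -0.50 to 0.62 in aorta and from -0.43 to 0.48 in muscle. These were taken within a tissue, so they cannot show whether aorta and muscle arrays of 1 number share a mouse. With 3 arrays per group, the standard error of a difference was 0.20 to 0.55 in aorta and 0.10 to 0.29 in muscle.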
